A study of Mus musculus with 20 samples.

Results

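Potassium channels and the hyperpolarisation-activated HCN channels were followed as 42 genes, chosen as a named list from the 55416 genes counted in lumbar dorsal root ganglia of the mouse. The list was chosen with earlier results of these data known, so shares set against all genes below describe it and do not test it. All 42 were found by symbol among the counted genes. They comprise 27 genes of voltage-gated (Kv) channels and their accessory subunits, 6 genes of two-pore (K2P) channels, 6 genes of calcium- or sodium-activated channels and 3 HCN genes. The ganglia, taken from lumbar levels L3 to L5, hold the cell bodies of sensory neurons with their glia. The study asked which genes change when Prdm12, a transcriptional regulator of nociceptors, is lost in adult animals under an inflammatory stimulus.

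The ganglia came from adult C57Bl6 mice of both sexes. In the sample labels the inducible conditional knockout, called icKO below, carried AdvCreERT2 and the floxed Prdm12 allele (P12 Fl/Fl) and had received tamoxifen (TAM). The series text names Rosa26CreERT2 as the driver in place of AdvCreERT2, so the cells in which the allele was deleted depend on which of these records is right. The control animals were P12 Fl/Fl TAM, so floxed alleles and tamoxifen were common to both genotypes and Cre was not. Tissue was taken a month after tamoxifen, and each animal gave a formalin library and a non-injected library. The labels give neither the dose nor the interval after formalin.

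The sample title and the name under which the counts were deposited give different genotypes for 4 of the 10 animals. Groups below follow the deposited name, and animals are called by their titles. The icKO animals are those titled control 1, icKO 1, control 4, icKO 4 and icKO 5, and the control animals are those titled control 2, icKO 2, icKO 3, control 3 and control 5. Library values are listed in these 2 orders throughout. The animals titled control 1, control 2, icKO 1, icKO 2 and icKO 3 were female and the others were male. The formalin library of the animal titled icKO 1 held 2829 counts and was left out, which leaves 19 libraries and a formalin icKO group of 4. Prdm12 itself measured 28.4, 26.3, 15.7 and 14.5 CPM in formalin icKO libraries, against 105, 73.3, 113, 92.0 and 98.8 CPM in formalin control libraries. In non-injected libraries it measured 23.3, 23.3, 38.9, 22.2 and 23.2 CPM in icKO, against 99.1, 74.5, 81.3, 77.0 and 95.9 CPM in control. CPM are counts scaled to a library of 1000000, with library sizes adjusted by the trimmed mean of M values (TMM). Over the summed counts of each animal Prdm12 averaged 23.7 ± 6.06 CPM in icKO and 90.8 ± 11.8 CPM in control (SD, n = 5 each), which was 3.89-fold higher in control (exact two-sided permutation test, p = 0.00794, the smallest that 5 against 5 allows). Every icKO library lay below every control library by deposited name, including those of the 4 animals whose title says otherwise. In the 6 animals whose records agree the means were 20.03 ± 3.14 CPM in icKO and 94.1 ± 8.77 CPM in control (SD, n = 3 each; exact two-sided permutation test, p = 0.1, the smallest possible).

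The 19 libraries held 11763893 to 22392635 counts. Markers of neurons, satellite glia and Schwann cells were present in each: 6 pan-neuronal genes summed to between 5820 and 9856 CPM, 4 satellite glia genes to between 3192 and 4963 CPM and 5 Schwann cell genes to between 3323 and 5420 CPM. Several icKO libraries stood apart. The non-injected libraries of the animals titled icKO 1, icKO 5 and icKO 4 had the 3 highest sums of 7 A-fibre neuron markers, at 7878, 7501 and 6450 CPM, while the other 16 libraries lay between 3716 and 5755 CPM. The same 3 libraries had the highest shares of counts on ENSMUSG00000119584, a gene with no name in the tables used, at 3.82%, 2.67% and 1.72%, against 0.318% to 1.25% in the other 16. The formalin library of the animal titled icKO 5 had the highest sums of skeletal muscle (1644 CPM), red cell (1606 CPM) and fibroblast markers (5107 CPM) and the highest mitochondrial share (8.75%, next 6.85%). The formalin library of the animal titled icKO 4 had the highest neutrophil sum (3151 CPM) and the second highest red cell sum (1313 CPM).

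**Figure D1:**
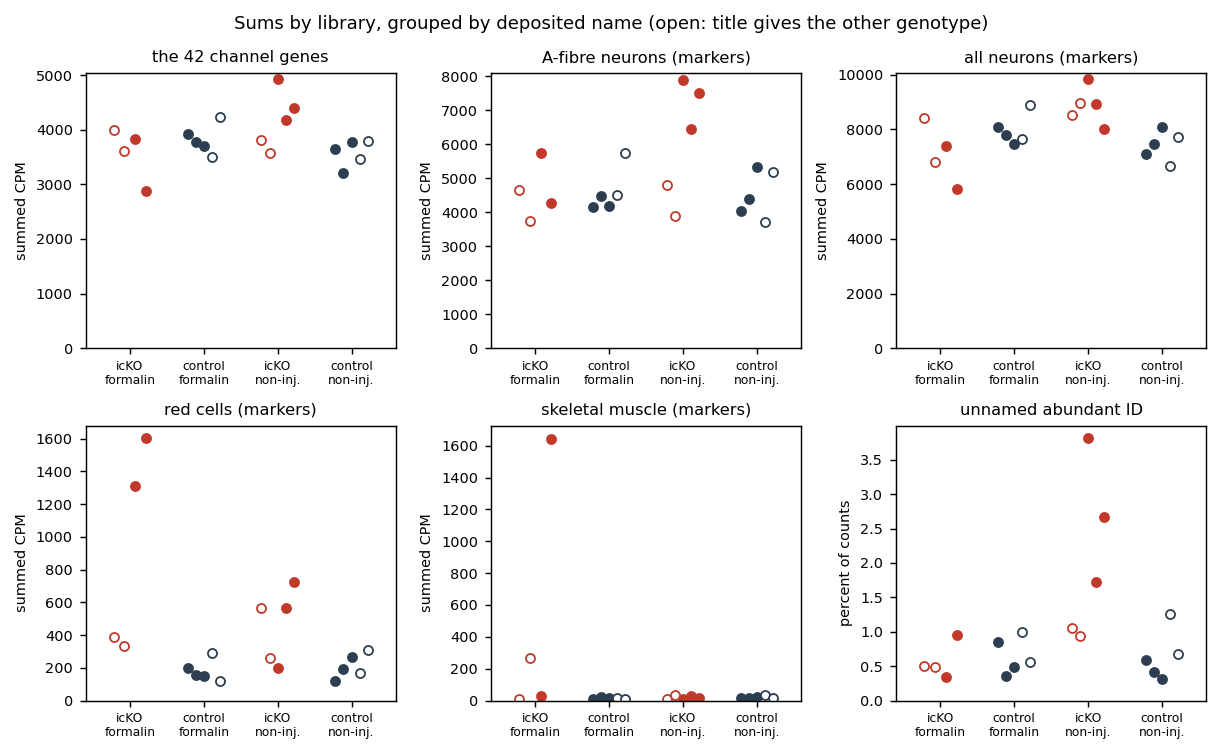
Summed CPM of the 42 channel genes and of marker lists, and the percent of counts on the unnamed ID, in each of the 19 libraries. Groups follow the deposited name, with icKO in red and control in dark blue, and open circles mark animals whose title gives the other genotype. The 3 filled icKO points of the non-injected group are the highest for A-fibre markers and for the unnamed ID, and 1 formalin icKO library reaches 1644 CPM for skeletal muscle markers.

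Potassium channels carry an outward current that holds the resting potential and ends the action potential, so their number and kind set how readily a sensory neuron fires. Kv channels open on depolarisation, two-pore channels leak potassium at rest, and calcium- or sodium-activated channels follow the ions that enter during firing. HCN channels pass an inward cation current on hyperpolarisation and favour repetitive firing, and in sensory neurons this current has been linked to pain.

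The promoters of 4 genes on which the genotype results turn are shown here: Hcn2, Kcns1 and Kcnh2, which were called higher in icKO ganglia without formalin and in the totals of 6 animals but not with formalin, and Kcnk10, which was called lower with and without formalin. Sequences are from RefSeq on GRCm38.p6, from 250 bases before to 50 bases after the annotated start, 5′ to 3′ on the gene's strand. Capitals mark GGGCGG, the core of the GC box bound by Sp-family factors, or its complement CCGCCC on the other strand.
Hcn2, chr10:79716384-79716683, plus strand: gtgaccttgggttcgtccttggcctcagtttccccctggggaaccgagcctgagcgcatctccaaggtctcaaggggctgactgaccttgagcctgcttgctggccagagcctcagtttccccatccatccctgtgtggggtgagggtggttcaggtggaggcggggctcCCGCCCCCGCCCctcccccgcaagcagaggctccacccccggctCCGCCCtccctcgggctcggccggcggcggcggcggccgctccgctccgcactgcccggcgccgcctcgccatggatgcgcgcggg
Kcns1, chr2:164171064-164171363, minus strand: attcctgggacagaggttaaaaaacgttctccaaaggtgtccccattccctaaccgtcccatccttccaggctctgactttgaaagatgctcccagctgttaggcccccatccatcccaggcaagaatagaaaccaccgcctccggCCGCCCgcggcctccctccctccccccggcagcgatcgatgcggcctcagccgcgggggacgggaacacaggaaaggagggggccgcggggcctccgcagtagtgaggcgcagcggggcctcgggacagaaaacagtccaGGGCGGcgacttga
Kcnh2, chr5:24329542-24329841, minus strand: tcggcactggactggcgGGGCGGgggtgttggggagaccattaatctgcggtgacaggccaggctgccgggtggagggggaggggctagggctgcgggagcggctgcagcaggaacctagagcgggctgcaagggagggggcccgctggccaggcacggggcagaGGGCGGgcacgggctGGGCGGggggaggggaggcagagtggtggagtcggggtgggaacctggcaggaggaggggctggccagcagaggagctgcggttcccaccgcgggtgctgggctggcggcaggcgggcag
Kcnk10, chr12:98578164-98578463, minus strand: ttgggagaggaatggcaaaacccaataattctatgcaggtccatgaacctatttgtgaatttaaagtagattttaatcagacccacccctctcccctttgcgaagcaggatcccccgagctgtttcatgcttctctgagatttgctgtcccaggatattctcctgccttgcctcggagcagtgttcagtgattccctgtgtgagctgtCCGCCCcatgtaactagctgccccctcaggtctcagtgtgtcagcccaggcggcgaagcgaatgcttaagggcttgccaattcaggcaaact
Promoters were matched for 32 of the 42 genes, 46 promoters in all. GGGCGG on either strand was found in 25 of these 46 (54.3%), against 35.7% of 32851 promoters of the same length. The promoters of Hcn2, Kcnh2 and Kcns1 held 3, 3 and 2 matches, and that of Kcnk10 above held 1. A second Kcnk10 promoter (chr12:98575078-98575377) held 0. Median GC content was 63.4% in the 46 promoters and 52.7% in all promoters. TGTGGT, the core of sites bound by Runx factors, was found on either strand in 3 of the 46 (6.52%), against 16.8% of all promoters. CANNTG, the E-box, was found in 33 of the 46 (71.7%), against 72.3% of all. Matches of different motifs may share bases, and a match describes the letters alone.

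In non-injected control ganglia the channel genes spanned more than 2 orders of magnitude per kilobase of annotated exon. The highest was Kcnab2, the Kv beta subunit that binds Kv1 channels, at 97.7 ± 8.54 CPM per kilobase (SD, n = 5). Next came Kcnip4, a calcium-binding partner of the A-type Kv4 channels, at 61.8 ± 3.44, and Kcnd1, a Kv4 pore subunit, at 46.8 ± 5.10. Kcnt1, a sodium-activated channel, measured 40.2 ± 4.01 and Kcna2, a low-threshold Kv1 channel of axons, 39.4 ± 3.95 CPM per kilobase. Kcnt1 and Kcna2 did not differ beyond their spread over animals, and neither did Kcna1 (28.3 ± 4.85), Kcnip2 (28.1 ± 2.11) and Kcnk1 (27.1 ± 2.10), which came next.

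Among the Kv genes with middle levels, Kcns3 measured 22.3 ± 0.824, Kcnab1 17.5 ± 1.98, Kcnd3 15.9 ± 1.57 and Kcnb2, a delayed rectifier of the Kv2 family, 14.7 ± 1.66 CPM per kilobase. Hcn2 was the highest HCN gene at 11.0 ± 1.67, above Hcn3 (5.15 ± 0.778) and Hcn4 (2.03 ± 0.610), and the ranges of these 3 over the animals did not overlap. Kcnk1 was the highest two-pore gene, and Kcnk4 (3.19 ± 0.314), Kcnk2 (2.44 ± 0.412), Kcnk18 (2.16 ± 0.336), Kcnk3 (2.02 ± 0.644) and Kcnk10 (1.56 ± 0.201) followed. The lowest values were those of Kcnn2 (1.12 ± 0.0944), Kcnmb4 (0.917 ± 0.137) and Kcnd2 (0.332 ± 0.139). Without length scaling the 42 genes summed to 3578 CPM, 9 of them above 100 CPM and 8 below 10 CPM, and the median coefficient of variation over the 5 animals was 11.8%. The kit kept no strand, so reads from a gene and from a gene on the opposite strand cannot be told apart: 39.6% of the exon bases of Kcna6, 31.5% of Kcnmb4 and 17.1% of Hcn3 lie under an annotated gene on the opposite strand, and 13.1% of Kcnk4 under another gene.

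**Figure D2:**
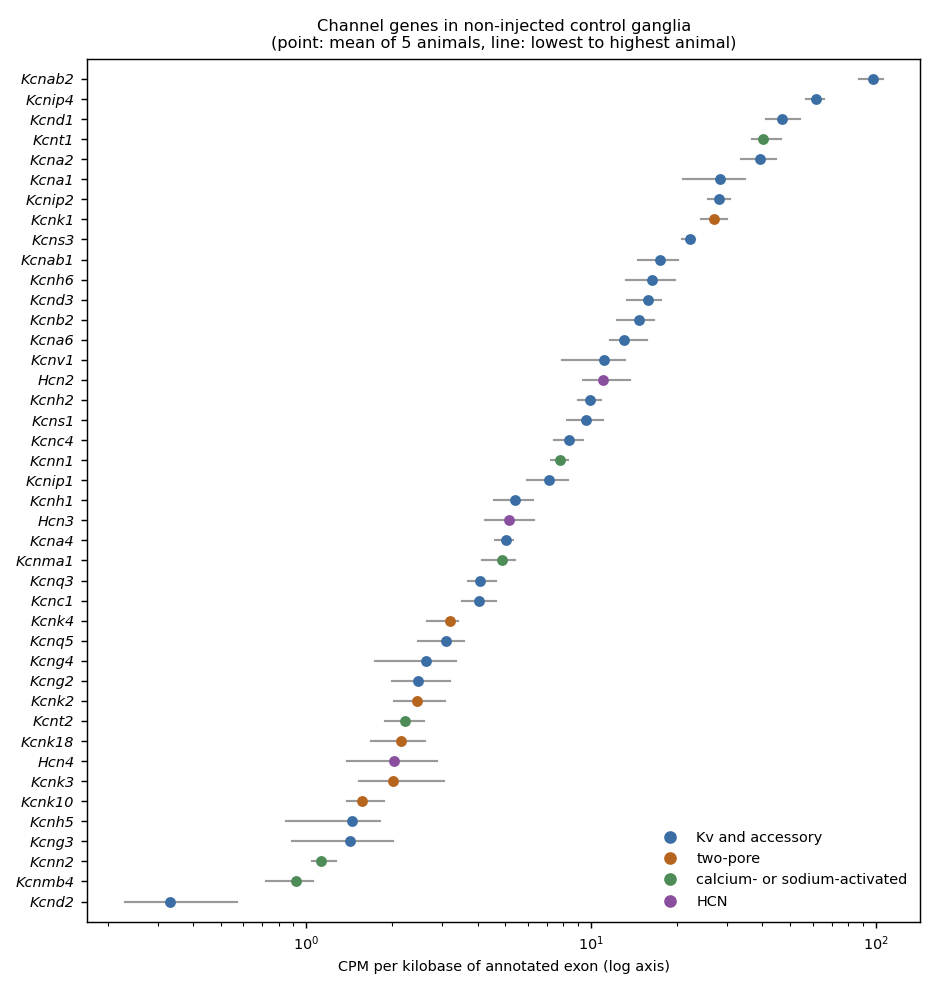
CPM per kilobase of annotated exon (log axis) of the 42 genes in the 5 non-injected control libraries. Points are means coloured by channel class, and lines run from the lowest to the highest animal. Kcnab2 is highest at 97.7 and Kcnd2 lowest at 0.332.

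Without formalin, Hcn2 and 6 Kv-family genes were higher in icKO than in control ganglia, and Kcnk10, a two-pore channel of the TREK group, was lower. The 8 calls are at an adjusted p under 0.05 by the quasi-likelihood F test of edgeR, adjusted by the method of Benjamini and Hochberg over 17671 genes. They come from a fit of all 19 libraries in 4 groups, which treats the libraries of an animal as independent. The 7 higher genes are 16.7% of the 42, against 5.86% of all genes tested, and the lower gene is 2.38%, against 3.53%. Of the 42 genes 37 had a positive log2 fold change, with a median of 0.25, while the median over all genes was -0.003. A fit of the non-injected libraries alone called 7 of the 42, all higher, and 5 of these were among the 8. Kcnc4, Kcnh1 and Kcnk10 were not called in that fit, while Hcn3 and Kcnh6 were. Of the 16756 genes tested in it, 772 were called higher and 482 lower. In bulk tissue, fewer cells of a type and less RNA per cell cannot be told apart.

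Hcn2 measured 43.2, 89.9, 54.4, 63.0 and 90.6 CPM in the icKO libraries, against 43.8, 31.9, 35.9, 29.9 and 33.9 CPM in the control libraries. The animals titled icKO 1 and icKO 5 were highest, and the lowest icKO library lay just under the highest control library. The log2 fold change was 1.00 ± 0.21 (SE, adjusted p = 0.0111). Hcn3 and Hcn4 had log2 fold changes of 0.47 ± 0.17 (adjusted p = 0.0944) and 0.26 ± 0.21 (adjusted p = 0.464), and neither was called.

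Kcns1 encodes a silent subunit, which gives no current of its own and modifies Kv2 channels. It measured 37.7, 60.8, 32.3, 41.4 and 51.3 CPM in the icKO libraries, against 24.3, 28.1, 29.9, 22.2 and 25.8 CPM in the control libraries. All icKO libraries were above all control libraries, and the animals titled icKO 1 and icKO 5 were again highest (log2 fold change 0.83 ± 0.20, adjusted p = 0.0169). Kcnv1, another silent subunit, measured 76.4, 80.3, 61.4, 89.5 and 72.7 CPM in the icKO libraries, against 45.9, 36.3, 60.2, 54.6 and 58.1 CPM in the control libraries. Its groups also did not overlap, but the lowest icKO library, at 61.4 CPM, lay just above the highest control library, at 60.2 CPM. The animal titled icKO 4 was highest (log2 fold change 0.57 ± 0.13, adjusted p = 0.0155). The other silent subunits, Kcng2, Kcng3, Kcng4 and Kcns3, had log2 fold changes of 0.30, 0.30, 0.34 and -0.05 and were not called.

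Kcnh2 belongs to the ERG group, whose channels close slowly after a depolarisation. It measured 57.6, 101, 61.7, 71.9 and 93.4 CPM in the icKO libraries, against 52.6, 43.7, 52.3, 43.9 and 47.2 CPM in the control libraries. The groups did not overlap (log2 fold change 0.73 ± 0.17, adjusted p = 0.0160). Kcnh1, of the related EAG group, measured 46.7, 62.8, 40.1, 55.5 and 59.8 CPM in the icKO libraries, against 38.8, 37.6, 45.8, 33.5 and 42.6 CPM in the control libraries. The lowest icKO library, of the animal titled control 4, lay within the control range, and the other 4 lay above it (log2 fold change 0.44 ± 0.12, adjusted p = 0.0312). Kcnh6 and Kcnh5 had log2 fold changes of 0.55 ± 0.18 (adjusted p = 0.0678) and 0.28 ± 0.22 (adjusted p = 0.460).

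Kcnab2, the most abundant of the 42 genes, measured 695, 1075, 655, 757 and 938 CPM in the icKO libraries, against 570.0, 500.1, 589.6, 487 and 578 CPM in the control libraries. The groups did not overlap (log2 fold change 0.63 ± 0.14, adjusted p = 0.0126). Kcnc4, a Kv3 subunit that helps fast repolarisation, measured 36.2, 66.5, 37.0, 43.3 and 59.2 CPM in the icKO libraries, against 29.6, 34.4, 27.2, 28.8 and 32.9 CPM in the control libraries. All icKO libraries lay above all control libraries, 3 of them by less than 10 CPM over the highest control (log2 fold change 0.68 ± 0.19, adjusted p = 0.0347). The other Kv1, Kv2, Kv3 and Kv4 pore genes were not called, with log2 fold changes between 0.01 for Kcnd1 and 0.53 for Kcnd2. Kcnc1, the other Kv3 gene, measured 29.4, 71.6, 33.6, 43.4 and 67.7 CPM in the icKO libraries, against 41.5, 34.6, 44.0, 33.3 and 38.1 CPM in the control libraries, with 3 icKO libraries inside the control range or below it. Kcnq5, a channel of the M-current, missed the threshold narrowly (log2 fold change 0.48 ± 0.15, adjusted p = 0.0504), and Kcnq3, of the same family, had 0.02 ± 0.14.

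Of the 42 genes Kcnk10 was the 1 called lower without formalin. It measured 9.73, 11.2, 11.5, 12.3 and 10.6 CPM in the icKO libraries, against 14.7, 12.2, 12.7, 12.7 and 16.4 CPM in the control libraries. The highest icKO library, of the animal titled icKO 4, lay just above the lowest control library (log2 fold change -0.32 ± 0.10, adjusted p = 0.0457). The other two-pore genes were not called. Kcnk3, an acid-sensitive channel, varied widely, with 7.93, 10.8, 25.2, 9.24 and 18.5 CPM in icKO and 12.1, 6.06, 6.38, 8.97 and 6.63 CPM in control libraries. None of the 6 calcium- or sodium-activated genes was called, and the smallest adjusted p among them was 0.163, for Kcnma1. By complete separation of the groups, 5 of the 42 genes (11.9%) were higher in every icKO library, against 4.79% of all genes, and 0 were lower, against 3.63%.

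These calls rested on few libraries. Without the non-injected libraries of the animals titled icKO 1 and icKO 5, which had the highest A-fibre marker sums, 0 of the 42 genes were called, 24 had a positive log2 fold change and the median was 0.09. Calls over all genes also fell, to 91 higher and 68 lower of 17876 tested. Hcn2 then had a log2 fold change of 0.65, Kcns1 0.57, Kcnv1 0.54, Kcnh2 0.46, Kcnab2 0.39, Kcnc4 0.34, Kcnh1 0.27 and Kcnk10 -0.33. Leaving out the animal titled icKO 1 alone, or the animal titled control 3 alone, also left 0 calls, and leaving out the animal titled control 2 left 2, Hcn2 and Kcnab2. Without the animal titled icKO 3, 5 calls were left. Higher calls over all genes also fell in these fits, from 1035 with all libraries. They were 194 without icKO 1, 220 without control 3, 376 without control 2 and 497 without icKO 3. Lower calls over all genes, 623 with all libraries, fell in each of these fits too. The loss of calls was therefore not particular to the channel genes. In the same comparison the A-fibre markers summed to 3900 to 7878 CPM in icKO and 3716 to 5331 CPM in control libraries. Of these 7 markers 6 had a positive log2 fold change and Ntrk3 alone was called (0.72). The 6 pan-neuronal markers were all positive, with a median log2 fold change of 0.30 and 1 called. So were the 5 non-peptidergic nociceptor markers (median 0.36, 1 called), the 5 neutrophil markers (median 1.00, 0 called) and the 5 red cell markers (median 1.02, 0 called). Of the 5 Schwann cell markers 1 was positive and 1 was called lower (median -0.18), and none of the 4 macrophage markers was positive (median -0.34). The part of these marker differences in the channel results was not tested.

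**Figure D3:**
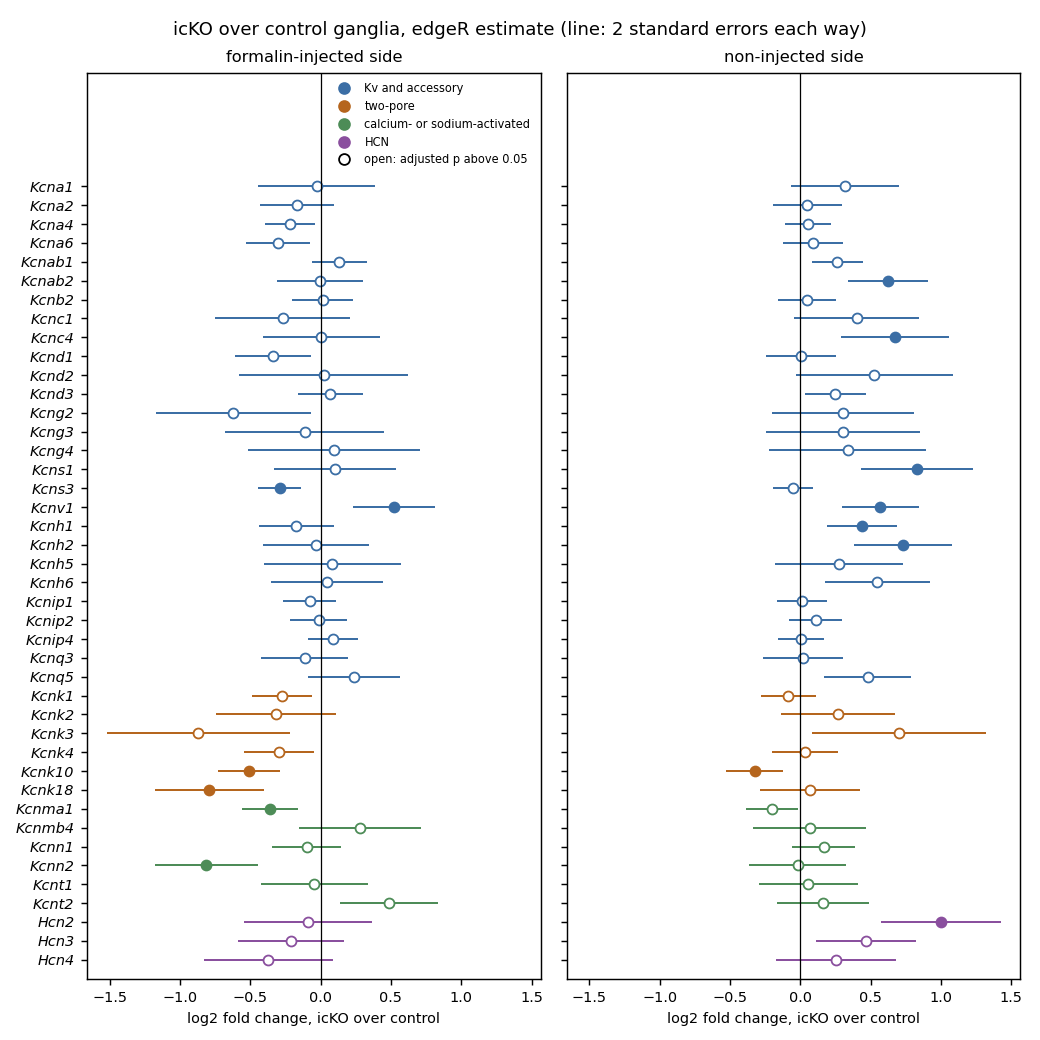
Log2 fold change of icKO over control for the 42 genes, with formalin (left) and without (right). Filled points have an adjusted p under 0.05 and lines reach 2 standard errors each way. The non-injected panel lies mostly right of 0, with Hcn2 at 1.00, and the formalin panel has Kcnn2, Kcnk18 and Kcnk10 lowest among the filled points at -0.81, -0.79 and -0.51.

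With formalin, Kcnk10, Kcnk18, Kcnn2, Kcnma1 and Kcns3 were lower in icKO than in control ganglia, and Kcnv1 was higher. These calls come from the fit of all 19 libraries in 4 groups, which treats the libraries of an animal as independent. A fit of the formalin libraries alone called 0 of the 42. Of the 17515 genes tested in that fit, 19 were called higher and 12 lower. The 5 lower genes are 11.9% of the 42, against 0.905% of all genes tested, and the higher gene is 2.38%, against 3.05%. Only 14 of the 42 genes had a positive log2 fold change and the median was -0.10, against 0.003 over all genes. Kcnk10 and Kcnv1 were the genes called with and without formalin.

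All 6 two-pore genes had a negative log2 fold change with formalin, with a median of -0.42, and 2 were called. Their summed level ranged from 92.5 to 101 CPM in icKO and from 121 to 132 CPM in control libraries, with no overlap. Kcnk1 alone averaged 47.5 CPM of it in icKO and 59.3 CPM in control libraries. Without formalin the 2 genotypes overlapped, with sums of 119.8 ± 14.6 CPM in icKO and 116.1 ± 4.47 CPM in control (SD, n = 5 each). Kcnk10 measured 10.4, 9.79, 10.2 and 9.03 CPM in the icKO libraries, against 13.9, 13.1, 14.7, 15.2 and 12.5 CPM in the control libraries. Every icKO library lay below every control library (log2 fold change -0.51 ± 0.11, adjusted p = 0.0171). Kcnk18, the calcineurin-regulated TRESK channel of sensory neurons, measured 5.91, 4.63, 5.91 and 3.39 CPM in the icKO libraries, against 9.42, 7.67, 11.3, 8.89 and 8.204 CPM in the control libraries. The groups were again separate, with the animal titled icKO 5 lowest (log2 fold change -0.79 ± 0.19, adjusted p = 0.0291). Kcnk3, Kcnk1, Kcnk4 and Kcnk2 had log2 fold changes of -0.87 ± 0.32, -0.27 ± 0.10, -0.30 ± 0.12 and -0.32 ± 0.21 and were not called (adjusted p between 0.150 and 0.457).

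Among the calcium- and sodium-activated genes, Kcnn2, a small-conductance (SK) channel that sets the afterhyperpolarisation, measured 7.37, 6.75, 5.29 and 5.43 CPM in the icKO libraries, against 12.8, 8.12, 9.10, 11.7 and 12.9 CPM in the control libraries. The groups did not overlap, and the 2 lowest control libraries were those of animals titled icKO (log2 fold change -0.81 ± 0.18, adjusted p = 0.0237). Antisense genes cover 8.13% of its exon bases. Kcnma1, the pore of the large-conductance BK channel, measured 73.1, 74.4, 67.3 and 58.0 CPM in the icKO libraries, against 88.2, 85.9, 87.5, 92.6 and 88.8 CPM in the control libraries. The control libraries lay within 7 CPM of each other and above all icKO libraries (log2 fold change -0.36 ± 0.10, adjusted p = 0.0432). Kcnt2, a sodium-activated channel, was higher in every icKO library, at 17.7, 16.9, 18.3 and 27.8 CPM against 14.3, 15.7, 14.4, 14.9 and 13.7 CPM in control, but was not called (adjusted p = 0.128). Kcnt1, Kcnn1 and Kcnmb4 had log2 fold changes of -0.04, -0.10 and 0.28 and were not called.

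Kcns3, a silent subunit, measured 69.7, 57.4, 62.0 and 61.4 CPM in the icKO libraries, against 74.8, 67.3, 79.2, 81.0 and 81.1 CPM in the control libraries. The change was small but the spread was smaller, and the groups overlapped in 1 library of each (log2 fold change -0.29 ± 0.07, adjusted p = 0.0354). Kcnv1 measured 84.4, 64.7, 77.8 and 59.5 CPM in the icKO libraries, against 46.6, 47.5, 47.7, 47.7 and 58.7 CPM in the control libraries. All icKO libraries were above all control libraries, the animal titled icKO 5 by the smallest margin (log2 fold change 0.52 ± 0.14, adjusted p = 0.0463). The 6 other genes that were higher without formalin were not called with it: Hcn2 had a log2 fold change of -0.09 ± 0.22, Kcnab2 -0.00 ± 0.15, Kcnh2 -0.03 ± 0.18, Kcns1 0.10 ± 0.21, Kcnh1 -0.17 ± 0.13 and Kcnc4 0.01 ± 0.20. By complete separation 6 of the 42 genes (14.3%) were lower in every icKO library, against 2.36% of all genes, namely the 4 lower genes Kcnk10, Kcnk18, Kcnn2 and Kcnma1 with Kcnd1 and Hcn4. Complete separation upward held for 2 (4.76%), Kcnv1 and Kcnt2, against 3.31% of all genes. Separation and summed levels were not adjusted for sex. Of the formalin icKO libraries only that of the animal titled control 1 (replicate 1) was from a female.

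Without the formalin library of the animal titled icKO 5, which carried the muscle, red cell and fibroblast markers, Kcnk10 alone was called; Kcnk18 then had a log2 fold change of -0.68, Kcnn2 -0.77, Kcnma1 -0.31, Kcns3 -0.30 and Kcnv1 0.58. Without the animal titled control 3, 0 genes were called, and without the animal titled control 2, 3 were called (Kcnk10, Kcnn2 and Kcns3). Only 1 was called without the animal titled icKO 3 (Kcnn2), control 5 or icKO 4 (Kcnk10 in both). Calls over all genes fell in these fits too. Higher calls fell from 539 to between 40 and 379, and lower calls from 160 to between 28 and 103. In this comparison all 5 neutrophil markers, all 5 red cell markers and all 6 skeletal muscle markers had positive log2 fold changes, with 2, 4 and 2 of them called, and the 6 peptidergic nociceptor markers were all negative with a median of -0.64 and 2 called. Their summed level was 1955 to 2515 CPM in icKO and 2440.5 to 3289 CPM in control libraries. The part of these marker differences in the channel results was not tested.

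**Figure D4:**
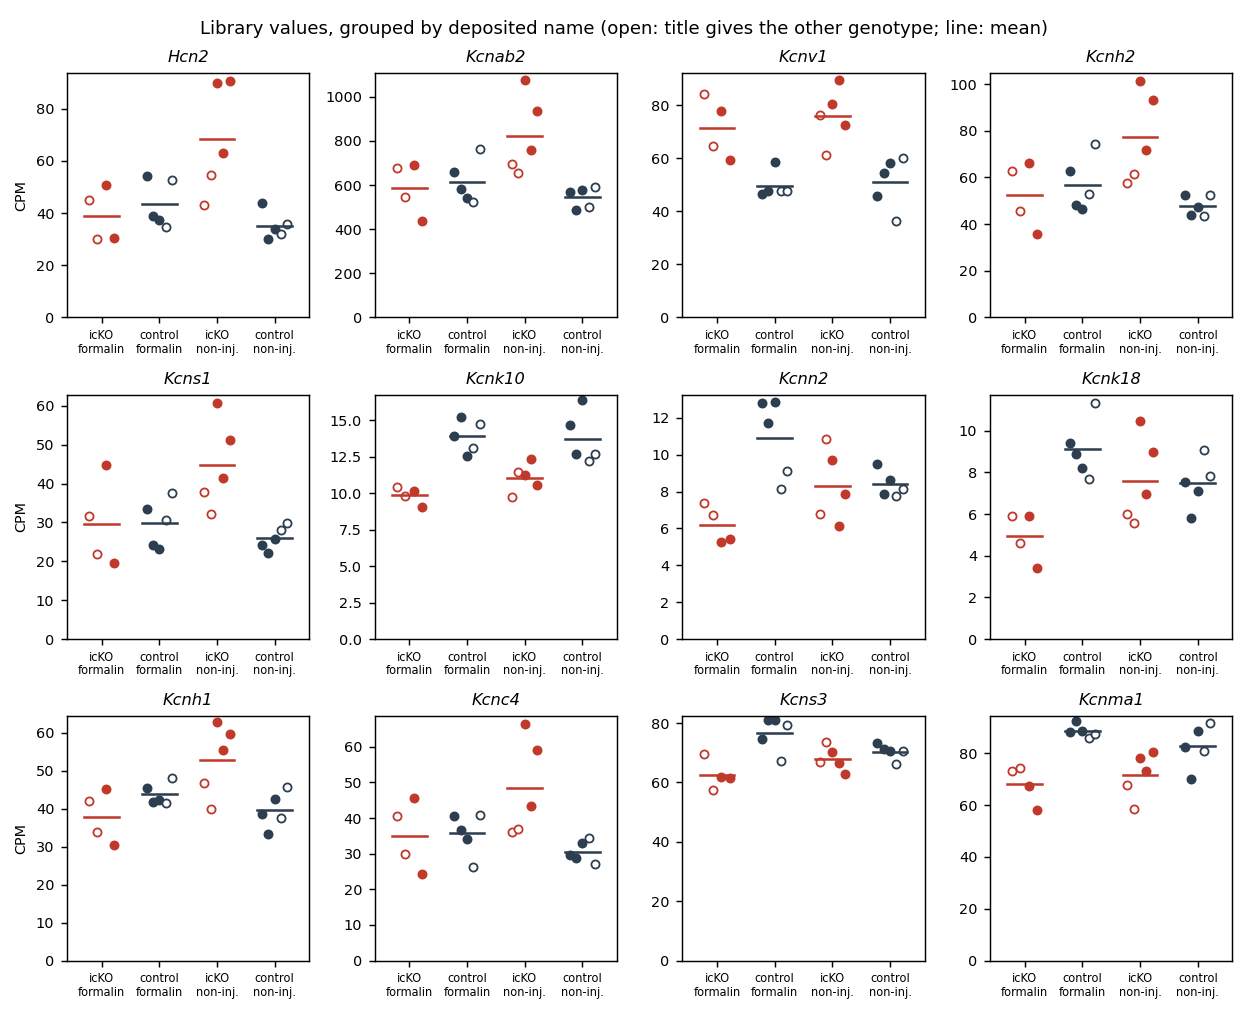
CPM of the 12 genes called in at least 1 genotype comparison, in each library. Groups run from formalin icKO to non-injected control by deposited name, lines are means, and open circles mark animals whose title gives the other genotype. Kcnv1 is higher in icKO in both states, Kcnk10 is lower in both, and Hcn2 reaches 90.6 CPM in non-injected icKO libraries.

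When the libraries of each animal were summed, 2 of the 42 genes were called over the 10 animals. The total of the animal titled icKO 1 held its non-injected library alone. Kcnv1 averaged 74.0 ± 10.2 CPM in icKO and 50.3 ± 6.40 CPM in control animals (SD, n = 5 each), with a log2 fold change of 0.55 ± 0.11 (adjusted p = 0.0431). Kcnk10 averaged 10.5 ± 0.726 CPM in icKO and 13.8 ± 0.747 CPM in control animals, with a log2 fold change of -0.40 ± 0.08 (adjusted p = 0.0425). Each is 2.38% of the 42, against 0.601% of all genes called higher and 0.484% called lower. Kcnv1 was higher in every icKO animal (1 gene, 2.38%, against 1.88% of all genes), and Kcnk10 and Kcnma1 were lower in every icKO animal (2 genes, 4.76%, against 2.27%). Leaving out the animal titled control 2, icKO 2, icKO 3, control 3 or icKO 4 left 0 calls among the 42. Over all genes these fits called 53 to 80 higher and 25 to 49 lower. Without the animal titled control 1 neither of these genes was called, and Hcn2, Kcnh2 and Kcns1 were called higher (against 0.962% of all genes). Kcnk10 was also not called without the animal titled control 4, control 5 or icKO 5, and Kcnv1 was not called without the animal titled icKO 1. Without the non-injected libraries of the animals titled icKO 1 and icKO 5 there were also 0 calls among the 42, with log2 fold changes of 0.48 for Kcnv1 and -0.46 for Kcnk10. Over all 18854 genes that fit called 86 higher and 30 lower.

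In the 6 animals whose genotype records agree, 3 of the 42 genes were called, all higher in icKO: Hcn2 (log2 fold change 0.77 ± 0.08, adjusted p = 0.0171), Kcns1 (0.84 ± 0.13, adjusted p = 0.0425) and Kcnh2 (0.61 ± 0.09, adjusted p = 0.0435). They are 7.14% of the 42, against 0.602% of all genes called higher, and 0 were called lower, against 0.293%. Without overlap of 3 against 3 animals, 14 genes (33.3%) were higher in icKO, against 10.7% of all genes, and 5 (11.9%) lower, against 11.7%. Kcnv1 and Kcnk10 kept log2 fold changes of 0.55 ± 0.12 and -0.42 ± 0.11 but were not called (adjusted p = 0.0876 and 0.123). All 3 icKO animals of this comparison are those with high A-fibre marker sums in their non-injected libraries. For the animal titled icKO 1 that library is the whole total, while the other totals also hold a formalin library. The 7 A-fibre markers were all positive in this comparison (median 0.67, 2 called), as were the 5 red cell (median 1.87), 5 neutrophil (median 1.48) and 6 skeletal muscle markers (median 3.77), of which 0 were called. The 6 peptidergic nociceptor markers were all negative, with a median of -0.52 and 3 called. The part of these marker differences in the channel results was not tested. Without the animal titled control 3, the animal titled icKO 4 or the sex term 0 of the 42 genes were called, and without the animal titled control 5 Hcn2 alone was called. Over all genes these fits called 4 to 22 higher and 4 to 13 lower. Without the animal titled icKO 1, Hcn2, Kcns1 and Kcnh2 were still called higher and Kcnn2 was called lower. Of the 18938 genes tested in that fit, 491 were called higher and 135 lower. Without the formalin library of the animal titled icKO 5, 10 were called, all higher, against 5.65% of all genes. Without the non-injected libraries of the animals titled icKO 1 and icKO 5, which leaves 2 icKO animals, 0 of the 42 genes were called. The log2 fold changes were then 0.31 for Hcn2, 0.41 for Kcns1 and 0.17 for Kcnh2. Over all 18836 genes that fit called 292 higher and 27 lower.

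The 4 animals with conflicting records, 2 of each genotype by deposited name, were described apart. Kcnv1 averaged 70.5 CPM in icKO and 47.9 CPM in control, a log2 difference of 0.56, beside 0.55 in the 6 agreeing animals. Kcnk10 averaged 10.2 CPM in icKO and 13.2 CPM in control, a log2 difference of -0.37, beside -0.42. Hcn2, at 43.4 and 39.1 CPM in icKO and control, differed by 0.17, beside 0.77. Kcns1 (30.6 CPM in icKO, 31.7 CPM in control) differed by -0.05, beside 0.83, and Kcnh2 (56.7 and 56.4 CPM) by 0.02, beside 0.61. Kcna1, an axonal Kv1 channel, differed by -0.46, beside 0.50. Of the 42 genes 22 had the same sign in both sets. No test was made of 2 against 2.

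Formalin itself gave 0 calls among the 42 genes in either genotype in edgeR's quasi-likelihood test, where 0% of all genes were called too. In icKO ganglia 39 of the 42 genes had a negative log2 fold change for formalin over non-injected, with a median of -0.21, and 16 had an unadjusted p under 0.05, all lower (38.1%, against 12.1% of all genes). The smallest adjusted p was 0.0859, for Kcnh1. DESeq2 called 6 there, all lower: Hcn2, Kcnab2, Kcnh1, Kcnh2, Kcnk18 and Kcnk3, where it called 5.48% of all genes lower. In the same comparison the 6 peptidergic nociceptor markers were all negative (median log2 fold change -0.38) and 5 of the 6 pan-neuronal markers were (median -0.31). All 5 neutrophil (median 1.17), 5 red cell (median 0.86) and 6 skeletal muscle markers (median 4.70) were positive, and 0 of these markers were called. The part of these differences in the channel results was not tested. In control ganglia 38 genes had a positive log2 fold change, with a median of 0.12, and 2 had an unadjusted p under 0.05, both higher (4.76%, against 1.21% of all genes). These 2 were Kcnn2 (0.37 ± 0.16) and Kcnk4 (0.24 ± 0.11), both with an adjusted p of 0.954. DESeq2 gave 0 calls there. In control ganglia the 6 peptidergic nociceptor markers were all positive (median 0.29), as were 5 of the 6 pan-neuronal markers (median 0.11). None of the 5 Schwann cell (median -0.30), 5 red cell (median -0.23) or 3 fibroblast markers (median -0.56) was positive. Of the 5 neutrophil markers 3 were positive (median 0.002), and of the 6 skeletal muscle markers 1 was (median -0.71). Of these markers 0 were called, and their part in the channel results was not tested. Averaged over the genotypes, formalin gave 0 calls and 0 genes under an unadjusted p of 0.05, against 0% and 4.87% of all genes, and DESeq2 also gave 0.

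Hcn2 shows the pattern within animals. Its log2 difference, formalin minus non-injected, was 0.06, -0.86, -0.31 and -1.57 in the icKO animals titled control 1, control 4, icKO 4 and icKO 5, and 0.31, 0.11, 0.55, 0.37 and 0.14 in the 5 control animals. It was higher with formalin in all 5 control animals, and lower in 3 of 4 icKO animals with the animal titled icKO 5 lowest. Hcn3 differed by 0.26, -0.36, -0.54 and -1.13 in icKO and by 0.26, -0.21, 0.45, 0.43 and 0.34 in control animals. Kcnk3 differed by 0.02, -1.73, -0.62 and -1.25 in icKO and by 0.25, 0.33, 0.22, 0.98 and 1.26 in control animals, the widest span of the genes named here. The animal titled control 1, icKO by deposited name, was close to 0 for Hcn2 and Kcnk3.

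Over all 42 genes the median log2 difference was 0.06, -0.11, -0.12 and -0.61 in the icKO animals, of which the last is the animal titled icKO 5. It was 0.12, 0.04, 0.17, 0.26 and -0.003 in the 5 control animals. In the icKO animal titled control 1, 28 of the 42 genes were higher with formalin, and in the control animal titled control 5, 21 were. In the animal titled icKO 5, 36 of 42 genes were lower with formalin, and that library carried the muscle, red cell and fibroblast markers. Its neuronal marker sum was the lowest of the 19 libraries, at 5820 CPM. Without that library the median log2 fold change for formalin in icKO ganglia was -0.13, and without the non-injected libraries of the animals titled icKO 1 and icKO 5 it was -0.11.

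**Figure D5:**
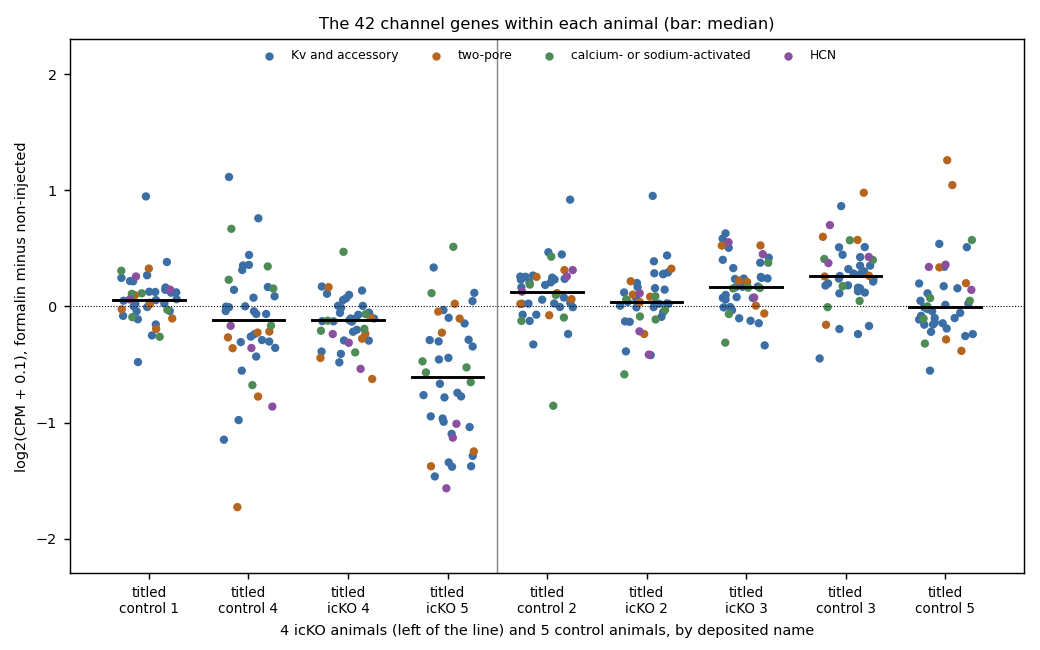
Difference in log2(CPM + 0.1) between the formalin and the non-injected library of each animal, with 1 point per channel gene and a bar at the median. The 4 icKO animals by deposited name are left of the line and the 5 control animals right of it. The animal titled icKO 5 has a median of -0.61 and the control animals lie between -0.003 and 0.26.

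Whether formalin acted differently in the 2 genotypes was tested as an interaction, the formalin effect in icKO minus that in control. None of the 42 genes was called, as for 0% of all genes. Of the 42 genes 39 had a negative interaction, with a median of -0.30, and 16 had an unadjusted p under 0.05, all negative (38.1%, against 11.9% of all genes). The largest were Kcnk3 (-1.57 ± 0.43), Hcn2 (-1.09 ± 0.30), Kcng2 (-0.92 ± 0.36), Kcnk18 (-0.86 ± 0.25) and Kcnn2 (-0.79 ± 0.24), and the smallest adjusted p was 0.108. DESeq2 called 7, all negative, against 3.48% of all genes called negative. The median of the 42 was -0.21 without the non-injected libraries of the animals titled icKO 1 and icKO 5 and -0.25 without the formalin library of the animal titled icKO 5, with 0 calls in both. All 6 pan-neuronal markers were negative in the interaction (median -0.49). The interaction and the comparisons above share libraries, so these signs are not separate evidence. Without the animal titled control 1, edgeR called 8 genes in the interaction, against 5.12% of all genes called negative, and 7 in the formalin comparison within icKO, against 5.76%. All were negative, and both counts include Hcn2, Hcn3, Kcnab2, Kcnh1, Kcnh2, Kcnk18 and Kcnk3.

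Sex was a term in each fit. In the animal totals 0 of the 42 genes were called by edgeR for male against female, where 0.0426% of all genes were called higher and 0.0266% lower, and DESeq2 also gave 0. Of the 42 genes 33 were lower in males, with a median log2 fold change of -0.19. At an unadjusted p under 0.05, 6 were lower (14.3%, against 5.84% of all genes) and 1 was higher (2.38%, against 6.93%). The lower genes were Kcna1 (-0.45 ± 0.18), Kcns1 (-0.40 ± 0.17), Kcnk18 (-0.36 ± 0.15), Kcnh6 (-0.35 ± 0.14), Kcnh2 (-0.34 ± 0.14) and Kcnip1 (-0.16 ± 0.07), and the higher gene was Kcnk2 (0.34 ± 0.15).

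By class, of the 27 Kv genes 26 had a positive log2 fold change without formalin (median 0.30, 6 called) and 12 with formalin (median -0.01, 1 called higher and 1 lower). The 3 KChIP genes, Kcnip1, Kcnip2 and Kcnip4, stayed within 0.12 of 0 in both comparisons. Kcna4, Kcna6, Kcnb2 and Kcnd3 were also not called in either by edgeR with the filter on low counts. Summed levels of the Kv genes were 3409.9 ± 520.2 CPM in icKO and 2866 ± 219.6 CPM in control libraries without formalin, and 2895 ± 394 CPM in icKO and 3063 ± 222 CPM in control with it (SD, n = 5, 5, 4 and 5). The HCN genes summed to 111 ± 28.04 CPM in icKO and 68.9 ± 10.6 CPM in control without formalin, and to 70.2 ± 13.4 CPM in icKO and 82.7 ± 14.3 CPM in control with it. Of the 42 genes, 30 were not called in any comparison by edgeR with all 19 libraries and the filter on low counts. DESeq2 called some of these 30, among them Kcna1, Kcnc1 and Kcnq5 in the 6 animals.

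Other potassium and HCN channel genes, 63 in a fixed list, were set beside these. Of them 52 passed the filter on low counts in the animal totals, where 1 was called higher and 2 lower. Kcnmb1, a beta subunit of the BK channel, was lower in icKO in all 4 genotype comparisons, with log2 fold changes of -0.64 ± 0.10 without formalin (adjusted p = 0.00155), -0.54 ± 0.11 with formalin (adjusted p = 0.0152) and -0.61 ± 0.08 in the totals of the 10 animals (adjusted p = 0.00358). Kcnn3, another SK channel, was lower without formalin (-0.77 ± 0.21) and with it (-0.98 ± 0.23). Without formalin 50 were tested, and Kcnj4 (1.14 ± 0.24), Kcnj3 (0.44 ± 0.11), which encodes an inward rectifier opened by G proteins, and Kcnk12 (0.84 ± 0.19) were higher while Kcnj15 (-1.69 ± 0.48) was lower. With formalin Abcc8, the sulphonylurea receptor of the ATP-sensitive channel, was lower (-0.53 ± 0.14). Their medians without and with formalin were -0.003 and -0.11, beside 0.25 and -0.10 for the 42 genes. Both lists were chosen with earlier results of these data known, so these medians do not test the 42 against the others.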

How the data were processed

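Polyadenylated RNA of 20 samples was extracted with TRIzol and made into non-stranded TruSeq libraries, per the labels' protocols. The authors deposited raw counts per Ensembl gene for each sample; per the submitters' processing notes the tools were bcl2fastq 2.20.0.422, STAR 2.7.8a and featureCounts 2.0.1 on GRCm39, while the sources used here give no settings, so how reads shared between genes were counted is unknown. Of 55416 IDs 52083 (94%) had a symbol in the name tables. Exon lengths are from GENCODE M21, on GRCm38, so levels per kilobase are approximate.

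Libraries under 1000000 counts were left out (1 of 20), and no 2 libraries held identical values. The 42 genes, the 63 other channel genes and the marker lists were chosen with earlier results of these data known. Counts were scaled by TMM and filtered with filterByExpr, and genes were tested with edgeR 4.0.16 (robust quasi-likelihood F test, R 4.3.3) with sex as covariate. P-values were adjusted by Benjamini-Hochberg over all genes tested, with a threshold of 0.05. The SE of a log2 fold change is its size divided by the square root of F. Fits within an agent used all 19 libraries in 4 groups, and animal totals summed the libraries of an animal. P-values of the animal totals measure the spread between these animals. The fits within an agent, of formalin and of the interaction treat the libraries of an animal as independent. Their p-values therefore mix the spread between animals with that between libraries of an animal. Intervals of counting error were not needed for these mean values.

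The formalin and non-injected libraries of an animal share its number in the titles and in the deposited names. Their deviations from the group means correlated between -0.02 and 0.46 over 9 pairs, above 0.1 in 8. The fit without this pairing was the one used, and the animal as a block was an alternative. Genes named with library values are those called in any genotype or formalin comparison. Kcnc1, Kcnk3, Kcnt2 and Hcn3 are also given with values by library or animal, and were chosen after their values were seen. Other alternatives were DESeq2 1.42.0, RLE size factors, leaving out the filter on low counts or the sex term, grouping by sample title, fits of only the groups compared, limma-voom (limma 3.58.1), and leaving out animals or libraries.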

Additional observations from a re-analysis of the deposited data

Results flagged for a closer look

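In 2 of 52 groups of 4 to 5 libraries checked, 1 library stood far from the others (Dixon's test at 95%, which chance flags in about 1 group in 20). Kcnv1 in formalin control ganglia measured 58.7 CPM in the animal titled control 5, while the other 4 control libraries lay between 46.6 and 47.7 CPM. That value is the one closest to the formalin icKO libraries, whose lowest was 59.5 CPM. Prdm12 in non-injected icKO ganglia measured 38.9 CPM in the animal titled control 4, while the other 4 lay between 22.2 and 23.3 CPM. It remained below the lowest non-injected control library, at 74.5 CPM.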

How the results depend on the processing

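The counts of called genes among the 42 depended on single animals and on the filter. Without a filter on low counts edgeR called 10 in the totals of the 10 animals (2 as reported), 13 in the 6 agreeing animals (3), 13 without formalin (8), 11 with formalin (6), 13 for formalin in icKO (0), 1 for formalin in control (0) and 16 for the interaction (0). Over all 39085 genes it then called 1448 higher and 363 lower in the totals, 1560 and 861 without formalin, and 1720 and 409 with formalin. The counts were 1131 and 1072 for formalin in icKO, 52 and 378 for formalin in control, and 1445 and 1074 for the interaction. In the 6 animals they were 1369 and 511 of 36444. DESeq2 called 6 in the totals, 9 in the 6 animals, 6 for formalin in icKO and 7 for the interaction. Over all genes DESeq2 called 479 higher and 335 lower of 17681 in the totals, and 729 and 303 of 17010 in the 6 animals. It called 353 and 762 of 13898 for formalin in icKO, and 282 and 495 of 14241 for the interaction. RLE size factors left 1 in the totals, where 112 of all 18787 genes were called higher and 86 lower. Grouping by sample title left 0 in the totals, 0 without formalin and 0 with formalin, where Kcnv1 turned to a log2 fold change of -0.063. Grouped by title, 0 of all genes tested were called in any of these comparisons. Prdm12 itself separated the libraries by deposited name and not by title. Dropping the sex term left 0 in the 6 animals, where 20 of all 18440 genes were called higher and 13 lower. A fit of only the 2 groups left 0 with formalin and gave 7 without it, 5 of them among the 8 reported. Without the formalin library of the animal titled icKO 5 the count was 10 in the 6 animals and 1 with formalin. The alternatives without the non-injected libraries of icKO 1 and icKO 5, or of icKO 1, 4 and 5, were chosen after seeing the data: the first gave 0 in the totals, 0 in the 6 animals and 0 without formalin, the second 0 without formalin. Leaving out 1 animal at a time gave 0 to 3 calls in the totals, 0 to 5 in the 6 animals, 0 to 9 without formalin, 0 to 5 with formalin, 0 to 7 for formalin in icKO and 0 to 8 for the interaction. Calls over all genes also varied with the animal left out. Formalin averaged over genotypes and sex gave 0 under every alternative run. With the animal as replicate block the formalin comparisons and the interaction gave 0, as without the block, and limma-voom on single libraries, with a random effect of animal, gave 3 in the totals. Over all 17671 genes limma-voom called 297 higher and 257 lower. Of 320 values of single called genes under the alternatives, 169 stayed past the threshold in the same direction, 150 kept the direction only and 1 reversed. The causes were not tested. Genes under 10 CPM, among them Kcnd2, Kcnmb4 and Kcnk18, are limited by depth.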
